A study of Mus musculus with 16 samples.

Results

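The 6 transcripts examined here are known from tissue-type regulatory T cells, which these data do not identify: Il1rl1, Il18r1, Il18rap, Il1r2, Klrg1 and Areg. They were taken by symbol from the deposited tables, where all 6 were among the 11067 genes of the regulatory (Treg) table. The conventional (Tcon) table of 11171 genes held 5 of them and no row for Areg. These 6 genes were selected on earlier results of the same libraries, with their response to treatment in Treg already known. Their changes in Treg are therefore a description, and an adjusted p printed for them gives their place among all genes of the table and is not independent evidence.

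RNA came from CD4+ T cells of the spleen and lymph node of FOXP3-IRES-GFP mice (strain B6.Cg-Foxp3tm2Tch/J, genotype WT), in which cells that express Foxp3 also make a green fluorescent protein. FOXP3+ Treg and FOXP3- Tcon were sequenced from mice given vehicle or 50 mg/kg venetoclax for 14 days, with 4 libraries in each of the 4 groups, 16 in all. Venetoclax is a small-molecule inhibitor of the survival protein BCL-2. The labels call the replicates biological and give neither age nor sex nor the number of animals behind a library. The codes in the titles (VEH1 to VEH4, ABT1 to ABT4) recur in both subsets.

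Interleukin-33 and interleukin-18 are alarmins, cytokines set free or activated when barrier cells are stressed or damaged. Both act through receptors of the interleukin-1 family, which pair a ligand-binding chain with an accessory chain and signal through MyD88 and IRAK kinases to NF-κB. Treg that live in fat, muscle, gut or skin, and their precursors in lymphoid organs, are known to carry the interleukin-33 receptor ST2 (Il1rl1), the interleukin-18 receptor chains (Il18r1, Il18rap) and the inhibitory lectin KLRG1. Il1r2 encodes a decoy receptor that binds interleukin-1 without signalling. Areg encodes amphiregulin, a ligand of the epidermal growth factor receptor that tissue Treg release during repair.

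In Treg, 4 of the 6 transcripts rose with venetoclax: Il1rl1 by 2.34-fold, Klrg1 by 2.12-fold, Il18r1 by 1.69-fold and Il18rap by 1.65-fold. The decoy receptor Il1r2 and the growth factor Areg did not pass the test, although Il1r2 did with the replicate number as a block. In the Treg table, 10.7% of all genes were called higher and 8.81% lower, and this contrast is the one the genes were chosen on. With upper quartile scaling the split of called genes in Treg was 968 higher and 1350 lower, against 1189 higher and 975 lower. None of the 5 genes measured in Tcon passed the test there, with limma on all genes, and 1 of them had an unadjusted p under 0.05. In that table only 3.92% of all genes were called higher and 2.99% lower, so 0 of 5 does not set these genes apart. Il1rl1, Il1r2 and Klrg1 had 28 to 67 summed reads per Tcon group.

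Of the genes, 4 lie in 1 cluster on chromosome 1 (GRCm38.p6), all on the forward strand: Il1r2 at 40084692 to 40125230, Il1rl1 at 40404864 to 40465418, Il18r1 at 40465552 to 40500854 and Il18rap at 40515362 to 40551707. The stretch from the start of Il1r2 to the end of Il18rap covers 467 kb, and only 133 bases separate the end of Il1rl1 from the start of Il18r1. Klrg1 lies on chromosome 6 (122270596 to 122282833, reverse strand) and Areg on chromosome 5 (91139599 to 91148432, forward strand).

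Promoter windows of 300 bases (250 before to 50 after an annotated start) are shown for the members of the cluster that rose together, and for Areg, which lies elsewhere and did not. They come from RefSeq on GRCm38.p6, which gave 8 windows for 5 of the 6 genes. Capitals mark the motifs searched on both strands: AGATAA and TGATAA, which factors of the GATA family bind, TGTGGT, which RUNX factors bind, and TGACGTCA, the cAMP response element. A match on the reverse strand appears in capitals as its reverse complement. The 2 windows of Il1rl1 are chr1:40429320-40429619 and chr1:40439379-40439678, those of Il18r1 shown are chr1:40465371-40465670 and chr1:40465756-40466055, that of Il18rap is chr1:40515112-40515411 and that of Areg is chr5:91139349-91139648, all on the forward strand.
Il1rl1, upstream start: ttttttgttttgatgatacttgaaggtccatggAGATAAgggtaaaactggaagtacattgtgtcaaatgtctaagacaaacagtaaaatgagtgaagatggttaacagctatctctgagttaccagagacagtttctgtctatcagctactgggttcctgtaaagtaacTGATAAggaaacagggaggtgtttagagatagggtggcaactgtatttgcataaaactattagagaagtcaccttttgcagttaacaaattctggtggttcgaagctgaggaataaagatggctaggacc
Il1rl1, downstream start: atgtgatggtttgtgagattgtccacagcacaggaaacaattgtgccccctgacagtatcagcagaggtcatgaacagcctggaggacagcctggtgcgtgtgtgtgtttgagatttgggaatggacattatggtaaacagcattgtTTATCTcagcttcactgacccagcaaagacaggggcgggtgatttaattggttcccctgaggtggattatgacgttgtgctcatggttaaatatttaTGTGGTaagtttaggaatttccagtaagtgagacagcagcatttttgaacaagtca
Il18r1, middle start: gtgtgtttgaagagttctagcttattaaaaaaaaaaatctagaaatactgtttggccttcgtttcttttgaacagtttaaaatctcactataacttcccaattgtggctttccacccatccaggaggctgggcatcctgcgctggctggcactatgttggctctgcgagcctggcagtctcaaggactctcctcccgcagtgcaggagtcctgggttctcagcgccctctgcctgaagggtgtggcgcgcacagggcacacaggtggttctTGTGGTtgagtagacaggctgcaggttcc
Il18r1, downstream start: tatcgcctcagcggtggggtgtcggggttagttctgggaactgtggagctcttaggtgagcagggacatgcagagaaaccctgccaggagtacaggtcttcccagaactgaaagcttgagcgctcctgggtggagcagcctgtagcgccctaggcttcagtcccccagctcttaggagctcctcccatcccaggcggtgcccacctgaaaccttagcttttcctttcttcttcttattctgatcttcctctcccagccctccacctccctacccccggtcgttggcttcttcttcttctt
Il18rap: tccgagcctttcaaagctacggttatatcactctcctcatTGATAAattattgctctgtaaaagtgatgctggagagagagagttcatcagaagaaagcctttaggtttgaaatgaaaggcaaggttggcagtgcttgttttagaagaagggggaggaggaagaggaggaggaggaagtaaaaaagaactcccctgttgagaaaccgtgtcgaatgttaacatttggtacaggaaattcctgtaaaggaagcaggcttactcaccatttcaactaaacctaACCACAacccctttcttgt
Areg: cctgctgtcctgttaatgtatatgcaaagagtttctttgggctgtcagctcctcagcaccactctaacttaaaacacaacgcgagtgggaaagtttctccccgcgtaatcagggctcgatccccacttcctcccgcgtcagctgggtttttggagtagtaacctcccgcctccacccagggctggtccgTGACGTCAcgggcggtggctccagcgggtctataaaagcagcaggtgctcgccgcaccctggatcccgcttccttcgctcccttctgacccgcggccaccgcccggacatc

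Both Il1rl1 starts (40429570 and 40439629) lie inside the span of the gene given above, and no window covers its first base (40404864). The upstream Il1rl1 window holds a GATA match 217 bases and another 80 bases before its start, and the downstream window holds 1 at 103 bases before its own. Il18rap has a GATA match 210 bases before its start. Il18r1 has 3 windows: the middle one holds a TGTGGT match beginning 21 bases after its start, the downstream one has no match to any motif searched, nor has the upstream one (chr1:40465302-40465601, at the start of the gene), which overlaps the middle one and is not printed. A GATA match was present in 4 of the 8 windows of these genes, among them both of Il1rl1 and that of Il1r2, and in 18.6% of all 32851 promoter windows. Matches to TGTGGT stood in 3 of the 8 windows and in 16.8% of all. The Areg window holds the palindrome TGACGTCA 61 bases before the start, which 1.79% of all windows carry. No window of these genes matched the AP-1 site TGANTCA (7.81% of all windows) or the consensus of NF-κB (0.411%), and CACGTG, an E-box, was found in that of Il1r2 (7.15% of all windows). A match describes the letters and shows no binding.

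Values below are normalized read counts, the reads of a gene divided by 1 size factor per library, and changes are log2 of venetoclax over vehicle. Reads assigned to genes ran from 21335006 to 25027038 per Treg library and from 22982210 to 24960570 per Tcon library. Foxp3 stood at 836 ± 67.8 CPM (reads scaled to the library total; SD, n = 4) in vehicle Treg and at 29.1 ± 2.28 in vehicle Tcon, 3.47% of the Treg level. In bulk RNA a change in the number of cells that express a gene and a change in RNA per cell cannot be told apart. Reads of the Y-linked gene Ddx3y were present in vehicle replicate 2 and in venetoclax replicates 1, 2 and 3 of both subsets and reached at most a normalized count of 1 in the other codes, so they coincide in part with treatment. The labels give no sex. For changes within a subset, this split was examined only by values within it and by a fit with Ddx3y as a covariate. The difference between the subsets had no such fit.

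**Figure D1:**
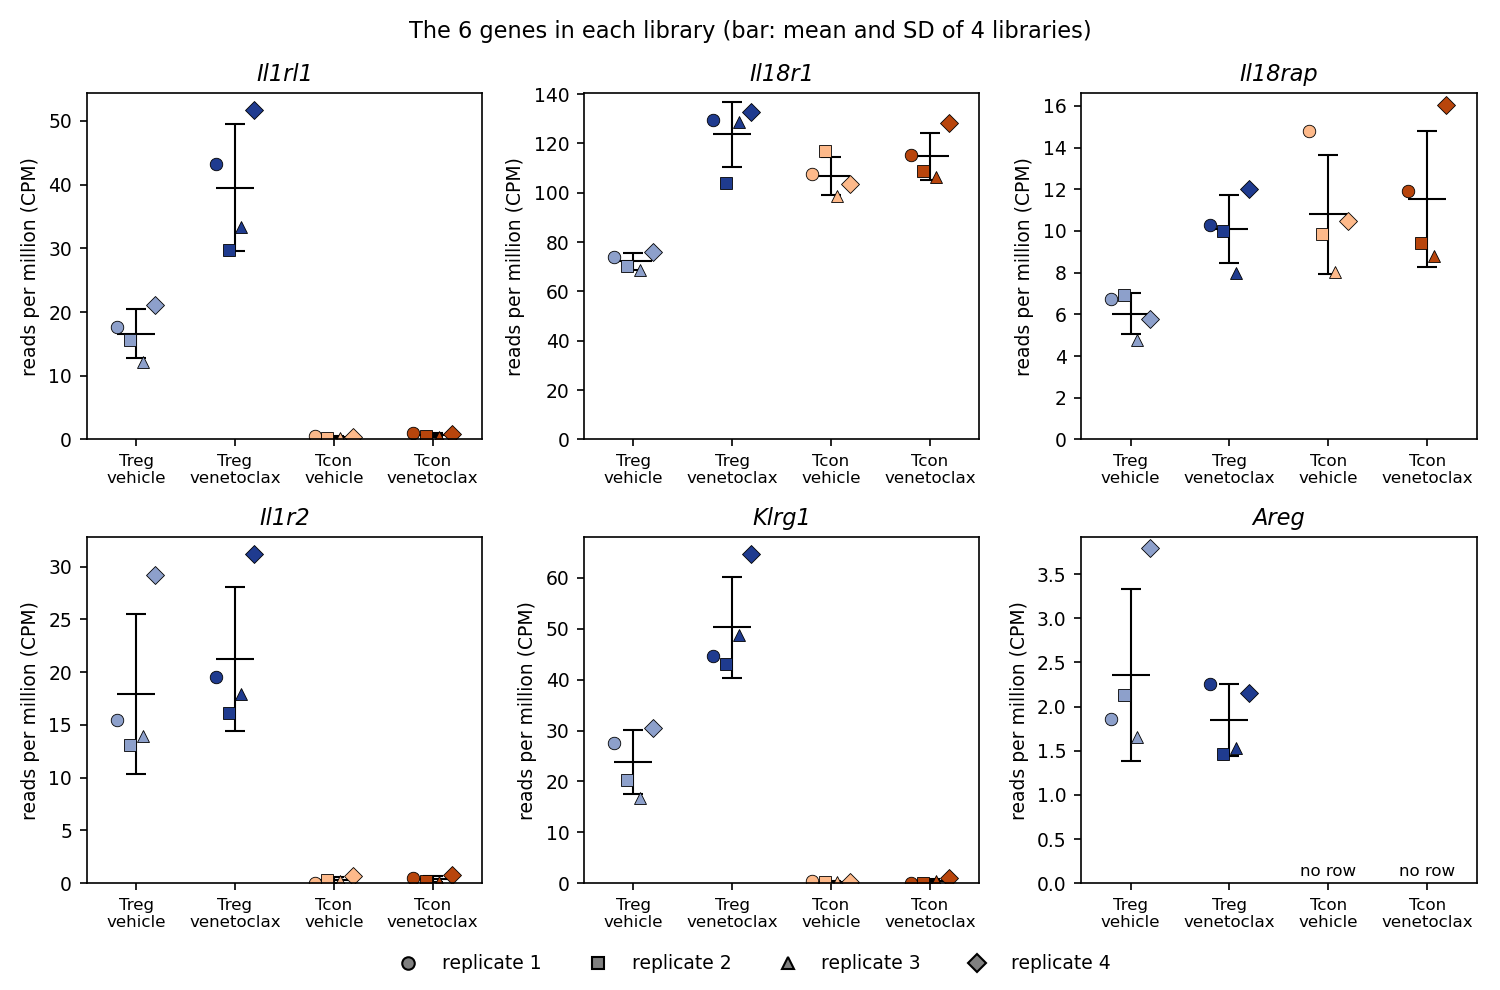
CPM of each gene in every library, by subset and treatment, with replicates 1 to 4 as circle, square, triangle and diamond and a bar for the mean and SD of 4 libraries. In Treg the venetoclax libraries of Il1rl1, Il18r1, Il18rap and Klrg1 all lie above the vehicle libraries, while those of Il1r2 and Areg overlap; Il1rl1, Il1r2 and Klrg1 lie near 0 in Tcon.

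Il1rl1 encodes ST2, the chain that binds interleukin-33. Its normalized counts in vehicle Treg were 415.6, 366.2, 292.1 and 502.6 in replicates 1 to 4, and with venetoclax 1025, 702.1, 780.7 and 1200. The lowest venetoclax library lay above the highest vehicle library, and replicate 4 was the highest in both groups. The mean went from 394.1 ± 88.4 to 927.1 ± 228 (SD, n = 4 per group), a log2 change of 1.23 (SE 0.17, 95% interval 0.86 to 1.59, limma adjusted p = 0.000518). Gene counts do not separate the membrane receptor from the shorter secreted form made by the same gene, so the change applies to their sum.

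Without Y-linked reads (3 vehicle libraries and 1 venetoclax library) the log2 change of Il1rl1 was 1.61, and with them (1 and 3 libraries) it was 1.17. It was called under all 21 alternatives, with log2 changes from 1.09 to 1.4.

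Il18r1 encodes the interleukin-18 binding chain and was the most abundant of the 6 in reads. Vehicle Treg libraries stood at 1739, 1651, 1658 and 1810, a narrow range. The venetoclax libraries stood at 3068, 2453, 3011 and 3079, all above it, with replicate 2 lowest. The mean rose from 1715 ± 75.2 to 2903 ± 301 (SD, n = 4 per group), a log2 change of 0.75 (SE 0.07, 95% interval 0.60 to 0.91, limma adjusted p = 7.5e-05). By p-value this was the gene of rank 7 in the table, and by size of rise rank 229. Within the libraries without and with Y-linked reads the log2 changes were 0.83 and 0.78.

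Il18rap encodes the accessory chain that completes the signalling receptor for interleukin-18. It was counted at 158.6, 162.3, 114.9 and 136.8 in vehicle Treg and at 244.7, 236.1, 187.4 and 278.4 with venetoclax, again without overlap. Replicate 3 was the lowest of both groups. The mean rose from 143.2 ± 21.9 to 236.7 ± 37.6 (SD, n = 4 per group), a log2 change of 0.72 (SE 0.14, 95% interval 0.42 to 1.02, limma adjusted p = 0.00398). Its rise was close in size to that of Il18r1, although its level per length was far lower. Within the libraries without Y-linked reads the log2 change was 1.03 and within those with them 0.44, the widest gap among the 4 genes. It was called under all 21 alternatives, the covariate fit among them, with a highest adjusted p of 0.021.

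Klrg1 encodes an inhibitory lectin-like receptor for cadherins, used as a mark of terminally differentiated effector cells. Its vehicle Treg libraries held 651.1, 477.5, 406 and 724.9 normalized counts, and its venetoclax libraries 1062, 1015, 1143 and 1504. All venetoclax libraries exceeded all vehicle libraries, as for the receptors of the cluster. The mean went from 564.9 ± 148 to 1181 ± 222 (SD, n = 4 per group), a log2 change of 1.08 (SE 0.16, 95% interval 0.74 to 1.43, limma adjusted p = 0.000815). The log2 change was 1.38 without and 1.17 with Y-linked reads. These 4 genes were those of the 6 whose groups did not overlap, a pattern that 12.0% of all genes in the Treg table showed in the upward direction.

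Il1r2, the decoy receptor, differed more between replicates than between treatments. Vehicle Treg libraries stood at 365, 307.9, 336.9 and 693.6 and venetoclax libraries at 463.8, 381.6, 420.3 and 724.9. Replicate 4 was the highest library in both groups, and vehicle replicate 4 was the only vehicle library above any venetoclax library. The mean was 425.8 ± 180 against 497.6 ± 155 (SD, n = 4 per group), a log2 change of 0.26 (SE 0.23, 95% interval -0.24 to 0.76, limma adjusted p = 0.466). Without vehicle replicate 4 the log2 change was 0.52 and passed the test (limma adjusted p = 0.0474). Leaving out each other library in turn gave no call. With the replicate number as a block the change of 0.26 passed (SE 0.08, limma adjusted p = 0.0305), and each venetoclax library lay above the vehicle library of its number. The labels state no pairing of these numbers between treatments. The log2 change was 0.72 without and 0.45 with Y-linked reads, and 0.59 with Ddx3y as a covariate (limma adjusted p = 0.0707).

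Areg was the least counted of the 6, with 34 to 95 reads per Treg library. Its normalized counts were 43.8, 49.93, 39.92 and 90.26 in vehicle and 53.38, 34.6, 35.75 and 49.93 with venetoclax, and the groups overlapped. The mean was 55.98 ± 23.2 against 43.41 ± 9.63 (SD, n = 4 per group), a log2 change of -0.31 (SE 0.25, 95% interval -0.85 to 0.24, limma adjusted p = 0.423). Vehicle replicate 4 was again the highest, and leaving it out brought the log2 change to -0.06. Of the 6 genes, 5 had their highest vehicle Treg library in replicate 4 and 5 had their highest venetoclax library there.

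As CPM per kilobase of exon, the order of levels in vehicle Treg was Klrg1 (16.8), Il18r1 (15), Il1r2 (9.4), Il1rl1 (2.41), Areg (1.94) and Il18rap (0.89). Klrg1 ranged from 11.9 to 21.6 and Il18r1 from 14.3 to 15.8, so those neighbours did not differ beyond their spread. Il1r2, at 6.87 to 15.3, reached into the range of both. Il1rl1 (1.76 to 3.07) and Areg (1.36 to 3.12) also overlapped, whereas Il18rap (0.71 to 1.02) lay below both. With venetoclax Klrg1 stood at 35.6, Il18r1 at 25.7, Il1r2 at 11.1, Il1rl1 at 5.73, Areg at 1.52 and Il18rap at 1.49 on the same scale. There the ranges of Klrg1 (30.4 to 45.8) and Il18r1 (21.6 to 27.5) no longer overlapped, while those of Areg (1.21 to 1.85) and Il18rap (1.19 to 1.78) did.

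The levels in Tcon split the genes into those found almost only in Treg and those shared by both subsets. In vehicle mice Il1rl1 stood at 16.6 ± 3.78 CPM in Treg and 0.349 ± 0.193 in Tcon, Klrg1 at 23.8 ± 6.32 and 0.308 ± 0.0774, and Il1r2 at 17.9 ± 7.56 and 0.299 ± 0.249 (SD, n = 4 per group). Their Tcon levels were 2.1%, 1.29% and 1.67% of those in Treg, below the 3.47% of Foxp3 itself. All 4 Treg libraries lay above all 4 Tcon libraries for these 3 genes, as they did for 24.5% of the 10774 genes in both tables. The tables were normalized separately, so no test was made of these levels.

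The interleukin-18 receptor chains had the opposite order in vehicle mice. Il18r1 was at 72.2 ± 3.34 CPM in Treg and 106.8 ± 7.65 in Tcon, and Il18rap at 6.04 ± 0.989 and 10.8 ± 2.87 (SD, n = 4 per group). All Treg libraries lay below all Tcon libraries for both, as for 12.0% of the genes in both tables. With venetoclax the libraries of the subsets overlapped: Il18r1 was at 123.6 ± 13.2 CPM in Treg and 114.8 ± 9.67 in Tcon, and Il18rap at 10.1 ± 1.64 and 11.5 ± 3.28.

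In Tcon, Il18r1 stood at 2534, 2685, 2478 and 2414 normalized counts with vehicle and at 2720, 2555, 2559 and 2968 with venetoclax. The groups overlapped, with a log2 change of 0.09 (SE 0.07, 95% interval -0.06 to 0.25, limma adjusted p = 0.475). Without Y-linked reads (1 venetoclax library) the log2 change of Il18r1 in Tcon was 0.26, and with them (1 vehicle library) it was -0.04. Il18rap stood at 348.1, 225.9, 201.6 and 244.3 with vehicle and at 280.2, 220.5, 211.7 and 371.3 with venetoclax, a log2 change of 0.08 (SE 0.21, 95% interval -0.37 to 0.54, limma adjusted p = 0.869). The highest library was replicate 1 among vehicle and replicate 4 among venetoclax libraries, and leaving out venetoclax replicate 4 turned the sign (log2 -0.08). The log2 change of Il18rap in Tcon was 0.52 without and 0.06 with Y-linked reads.

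Il1rl1 in Tcon rested on 33 reads over the 4 vehicle libraries and 67 over the 4 venetoclax libraries. Its normalized counts were 13.8, 4, 5.28 and 9.93 with vehicle and 23.6, 12.3, 11.1 and 18.8 with venetoclax. The groups overlapped, since vehicle replicate 1 lay above venetoclax replicates 2 and 3. The log2 change was 0.99 (SE 0.41, 95% interval 0.08 to 1.89), with an unadjusted limma p of 0.036 and an adjusted p of 0.186. It was called under none of 20 alternatives. Without and with Y-linked reads its log2 changes were 0.98 and 1.66.

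Il1r2 had 28 and 36 reads in vehicle and venetoclax Tcon (log2 0.28, SE 0.72, limma adjusted p = 0.869), and Klrg1 had 29 and 41 (log2 -0.19, SE 0.70, limma adjusted p = 0.912). Of the 41 Klrg1 reads 25 came from venetoclax replicate 4, and the direction of Klrg1 in Tcon depended on the setting. Without and with Y-linked reads the log2 changes in Tcon were 1.65 and -0.78 for Klrg1 and 1.61 and -0.29 for Il1r2. At this depth no change of Il1r2 or Klrg1 in Tcon could be resolved. Of all genes in Tcon, 3.92% were called higher and 2.99% lower, and 8.78% had all venetoclax libraries above all vehicle libraries, against 0 of these 5. With the replicate number as a block, 1880 genes of Tcon were called in place of 772, none of these 5 among them.

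The difference between the effects in Treg and Tcon was tested as an interaction over all 16 libraries, where 1.3% of 10774 genes passed. Il18r1 passed: its log2 change was larger in Treg than in Tcon by 0.66 (SE 0.10, 95% interval 0.44 to 0.88, limma adjusted p = 0.00396), and it did so under all 14 alternatives. None of these 14 held Ddx3y as a covariate, so the part of the Y-linked split in this difference was not tested. Il18rap had a difference of similar size, 0.64 (SE 0.27, 95% interval 0.07 to 1.21), which did not pass over all genes (limma adjusted p = 0.401). With the title code that a Treg and a Tcon library share (VEH1, for example) as a block, the limma adjusted p of Il18rap was 0.0466.

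Il1rl1 had a difference of 0.24 (SE 0.44, 95% interval -0.68 to 1.16, limma adjusted p = 0.956), Klrg1 of 1.27 (SE 0.75, 95% interval -0.31 to 2.85, limma adjusted p = 0.64) and Il1r2 of -0.02 (SE 0.79, limma adjusted p = 0.998). These wide intervals go with the few Tcon reads, and they show neither equal nor unequal effects in the 2 subsets. Since the Treg effect had a part in the choice of the genes, the difference is not independent of it.

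The other genes of the cluster had changes of both signs. Il1r1, the signalling receptor for interleukin-1, had 14, 17, 11 and 16 reads in vehicle Treg and 55, 47, 19 and 45 with venetoclax. It rose by 1.41 on the log2 scale (SE 0.33, limma adjusted p = 0.0104), all venetoclax libraries above all vehicle libraries. In Tcon its change was 1.48 (SE 0.53, limma adjusted p = 0.126; adjusted p = 0.00541 with the replicate number as a block).

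Il1rl2, the receptor for interleukin-36, lies between Il1r1 and Il1rl1. It was at 26.3 ± 6.84 normalized counts in vehicle and 18.2 ± 5.72 in venetoclax Treg (log2 -0.53, SE 0.29, limma adjusted p = 0.216). In Tcon it fell from 457.6 ± 50.6 to 328.9 ± 27.1 (SD, n = 4 per group), a log2 change of -0.47 (SE 0.10, limma adjusted p = 0.0223). That call was lost without vehicle replicate 1 (limma adjusted p = 0.0722) or 2 (0.0719), without venetoclax replicate 1 (0.087) or 2 (0.0712), without venetoclax replicates 1 and 3 together (0.209), and with Ddx3y as a covariate (0.0928). So 1 gene that is abundant in Tcon was lower inside the stretch where Il1rl1, Il18r1 and Il18rap rose in Treg.

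At the edges of the cluster, Map4k4, a protein kinase, had a log2 change of -0.18 in Treg (SE 0.05, limma adjusted p = 0.0218; 0.0681 at most with 1 library left out, when 3 of the 8 fits lost the call) and -0.02 in Tcon. Mfsd9, a predicted transporter, had log2 changes of -0.41 in Treg and -0.46 in Tcon, and neither passed. A non-coding gene overlaps the start of Il1r2 in the annotation, and whether the counting used strand is not stated, so reads of the pair cannot be told apart.

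**Figure D2:**
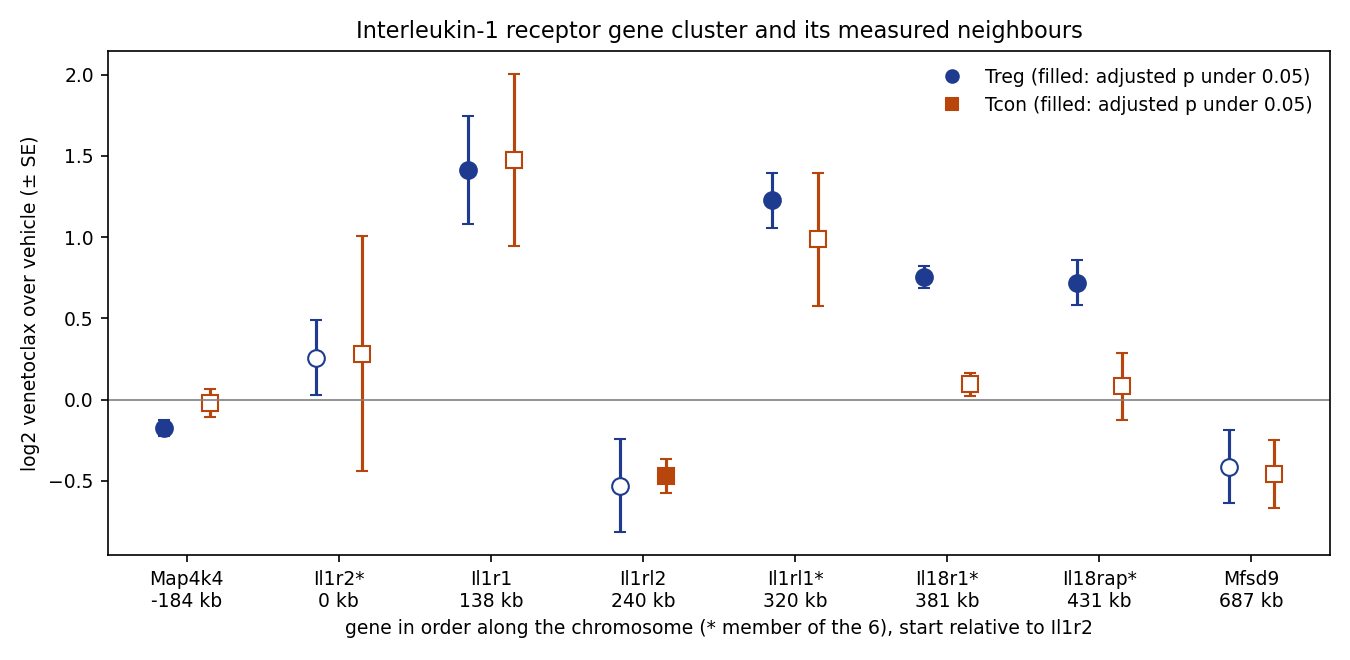
Log2 change (venetoclax over vehicle, ± SE) of the 8 measured genes around the receptor cluster, in chromosomal order with the start of each relative to Il1r2, in Treg (circles) and Tcon (squares), filled where limma's adjusted p was under 0.05. In Treg, Il1r1, Il1rl1, Il18r1 and Il18rap lie above 0 and filled; in Tcon, Il18r1 and Il18rap lie near 0.

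Outside the cluster, M6pr, the mannose 6-phosphate receptor gene nearest to Klrg1 among those measured (26 kb away), had a log2 change of 0.17 in Treg (limma adjusted p = 0.0175; 0.0602 without venetoclax replicate 4 and 0.0792 without venetoclax replicates 1 and 3), against 1.08 for Klrg1. Its other measured neighbours within 500 kb, Phc1, Apobec1 and Slc2a3, had values from -0.14 to -0.09 and did not pass. Near Areg, the growth factor gene Btc (log2 -0.10) and the chemokine gene Cxcl2 (log2 -0.58) did not pass in Treg, while Rassf6 had a log2 change of 0.93 (SE 0.29, limma adjusted p = 0.04) from a mean of 14.3 to 27.4 normalized counts, a call lost in 5 of 8 fits with 1 library left out.

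The partners of these receptors were read from lists of the interleukin-1 pathway. Il1rap, the accessory chain shared by ST2 and the interleukin-1 receptor, was at 541.7 ± 41.9 in vehicle and 574.6 ± 44.9 in venetoclax Treg (SD, n = 4 per group), a log2 change of 0.08 (limma adjusted p = 0.487). Sigirr, an inhibitory member of the family, had a log2 change of -0.10 (limma adjusted p = 0.177). So the ligand-binding chain Il1rl1 differed by 2.34-fold while the shared accessory chain differed by 1.06-fold and did not pass.

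Of 3 ligand and inhibitor genes measured in Treg, 2 rose. Il1rn, the interleukin-1 receptor antagonist, had 23, 19, 23 and 30 reads in vehicle and 57, 54, 45 and 61 with venetoclax (log2 1.21, SE 0.20, limma adjusted p = 0.00162). Il18 itself went from 26.1 ± 10.9 to 47.9 ± 3.12 (SD, n = 4 per group), a log2 change of 0.94 (SE 0.27, limma adjusted p = 0.0252), a call lost in 5 of 8 fits with 1 library left out (adjusted p up to 0.0717). Il18bp, which neutralizes interleukin-18, had a log2 change of 0.16 (limma adjusted p = 0.371). Il33 and Il1b had no row in either table.

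Among 27 measured genes of MyD88 and IRAK signalling in Treg, 2 were called higher and 4 lower, and their median log2 change was -0.03, against 0.00 for all genes. Tollip, which restrains receptor signalling, fell by 0.31 on the log2 scale (SE 0.06, limma adjusted p = 0.00271), and Tab1, an adaptor of the kinase TAK1, fell by 0.42 (SE 0.08, limma adjusted p = 0.00278; 0.0558 without venetoclax replicates 1 and 3, whose Ddx3y counts were intermediate). The other calls were Irak4 (log2 0.25), Nfkb1 (0.20), Tnfaip3 (-1.01) and Nfkbia (-0.39). Each of these was lost in 2 to 5 of the 8 fits with 1 library left out. Without venetoclax replicates 1 and 3 the list had 0 higher and 1 lower. Tnfaip3 and Nfkbia were named after their values were seen. The share of called genes in this list, 6 of 27, compares with the 2164 called of 11067 in the table. In Tcon, where 772 of 11171 genes were called, 1 of 26 was higher (Irak4, log2 0.34, limma adjusted p = 0.0255). There 2 were lower, Tab1 (log2 -0.41, limma adjusted p = 0.012) and Irak3 (log2 -0.71, limma adjusted p = 0.014). Each of these Tcon calls was lost without venetoclax replicates 1 and 3.

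Amphiregulin is cut from the cell surface by ADAM17, and the list of its family held 9 measured genes in Treg. Adam10 (log2 0.23, SE 0.05, limma adjusted p = 0.0052) and Adam17 (log2 0.22, SE 0.05, limma adjusted p = 0.0118; 0.119 without venetoclax replicates 1 and 3 and 0.0669 without both replicates 3) rose, and Egf fell by 1.17 (SE 0.25, limma adjusted p = 0.00631), from 66.6 ± 17.6 to 29.4 ± 8.43 (SD, n = 4 per group). The other members, among them Hbegf and Btc, did not pass. In Tcon 8 of these genes were measured, and 3.92% of all genes were called higher and 2.99% lower. There Adam17 rose (log2 0.27, limma adjusted p = 0.0202) and Egf fell (log2 -1.27, limma adjusted p = 0.0162), as in Treg. Adam10 (log2 0.17) did not pass in Tcon. Without venetoclax replicates 1 and 3 both Tcon calls were lost. For KLRG1, the phosphatase genes Inpp5d, Ptpn6 and Ptpn11 had log2 changes from 0.10 to 0.16 in Treg, and 0 of 3 were called with limma (1 at an unadjusted p under 0.05, and 1 called with the replicate number as a block). In Tcon Ptpn6 was called higher (log2 0.36, limma adjusted p = 0.0258, and 0.304 without venetoclax replicates 1 and 3). Inpp5d (log2 0.19) and Ptpn11 (log2 0.15) did not pass there.

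The 4 rising genes were set beside a list of 46 measured regulators and surface genes of tissue Treg, made with earlier results of these data known. Of these, 34 rose and 0 fell, with a median log2 change of 0.55. Of all genes in the Treg table, 10.7% were called higher and 8.81% lower. Leaving out 1 library at a time gave 31 to 35 higher. Without venetoclax replicates 1 and 3, where calls dropped over the whole table, Ccr8 lost its call (limma adjusted p = 0.0847), as did Batf and Pparg (below). Pdcd1, the checkpoint receptor PD-1, went from 1304 ± 98 to 2472 ± 230 (SD, n = 4 per group), a log2 change of 0.92 (limma adjusted p = 2.85e-05). The chemokine receptor Ccr4 (log2 0.93), the ectonucleotidase CD73 gene Nt5e (0.62) and the transcription factor Maf (0.91) followed, all called under all 21 alternatives.

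The transcription factors known for the ST2+ Treg program did not all move alike; they were picked for mention after their values were seen. Irf4 rose by 0.61 (limma adjusted p = 0.000313), Batf by 0.39 (limma adjusted p = 0.00554) and Prdm1, which encodes Blimp-1, by 0.58 (limma adjusted p = 0.00431). Pparg, the fat Treg regulator, rose by 1.47 (limma adjusted p = 0.0137) from 6.56 ± 3.03 to 18.9 ± 3.68 normalized counts (SD, n = 4 per group). Without venetoclax replicates 1 and 3 the adjusted p was 0.0554 for Batf and 0.0844 for Pparg, and without both replicates 3 it was 0.0695 for Pparg. Gata3 stood at 2731 ± 385 and 2712 ± 84.9 (log2 0.00, SE 0.08, limma adjusted p = 0.995), and Rora had a log2 change of 0.29 that did not pass (limma adjusted p = 0.0901; 0.0202 without vehicle replicate 4 and 0.0416 with the replicate number as a block).

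The next lists were also made with earlier results of these data known, in a table where 8.81% of all genes were called lower and 10.7% higher. Of 14 measured genes of resting Treg, 7 fell and 1 rose (median log2 -0.21). Satb1, a chromatin organizer of naive cells, fell by 0.68 (limma adjusted p = 7.15e-05), and S1pr1, the receptor for exit from lymphoid organs, fell by 0.43 (limma adjusted p = 0.00271). The exception was Il7r, which rose by 1.08 (limma adjusted p = 7.83e-05). Of 4 measured T helper 2 genes, the receptors Il9r (log2 0.76, limma adjusted p = 0.000815) and Il17rb (log2 0.60, limma adjusted p = 0.0129, and 0.162 without venetoclax replicates 1 and 3) rose. Of 9 T helper 1 genes 3 rose and 0 fell: Il12rb1 (log2 0.472, limma adjusted p = 0.00199), Tbx21 (0.535, 0.0383) and Ccl5 (0.485, 0.0421). Of 5 measured follicular genes 2 rose and 0 fell: Cxcr5 (log2 0.435, limma adjusted p = 0.0071) and Tox2 (0.57, 0.0367). Tbx21, Ccl5 and Tox2 lost their calls in 5 or 6 of 8 fits with 1 library left out. Of 23 immediate early genes 13 fell and 1 rose (median log2 -0.72), with Fosb lower at a log2 change of -3.57 (limma adjusted p = 0.00162). Without venetoclax replicates 1 and 3, 4 of the 23 fell, and with a constant prior 8 did. The fall was not particular to Treg. In Tcon, where 2.99% of all genes were called lower, 7 of the 23 fell and 0 rose (median log2 -0.76). The number lower there was 4 to 14 with 1 library left out. Fosb in Tcon had a log2 change of -3.25 (limma adjusted p = 0.0139). Of 14 resting Treg genes 3 fell in Tcon, among them Satb1 and S1pr1, and 2 rose (0 to 3 lower with 1 library left out).

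In Tcon the tissue Treg list had 6 of 42 measured genes higher and 0 lower (median log2 0.32), where 3.92% of all genes were called higher. The number higher was 3 (without venetoclax replicate 1) to 8 with 1 library left out, and 2 without venetoclax replicates 1 and 3. It was 12 without both replicates 3 or with DESeq2, and 17 with the replicate number as a block. A list of 8 general Treg identity genes, which shares members with it, had 3 higher and 0 lower in Tcon. Ccr8 went from 44.5 ± 8.9 to 89.9 ± 9.75 normalized counts there (SD, n = 4 per group), a log2 change of 1.01 (limma adjusted p = 0.00794; 0.158 without venetoclax replicates 1 and 3). Il1rl1, Il1r2 and Klrg1 remained at 28 to 67 summed reads per Tcon group.

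**Figure D3:**
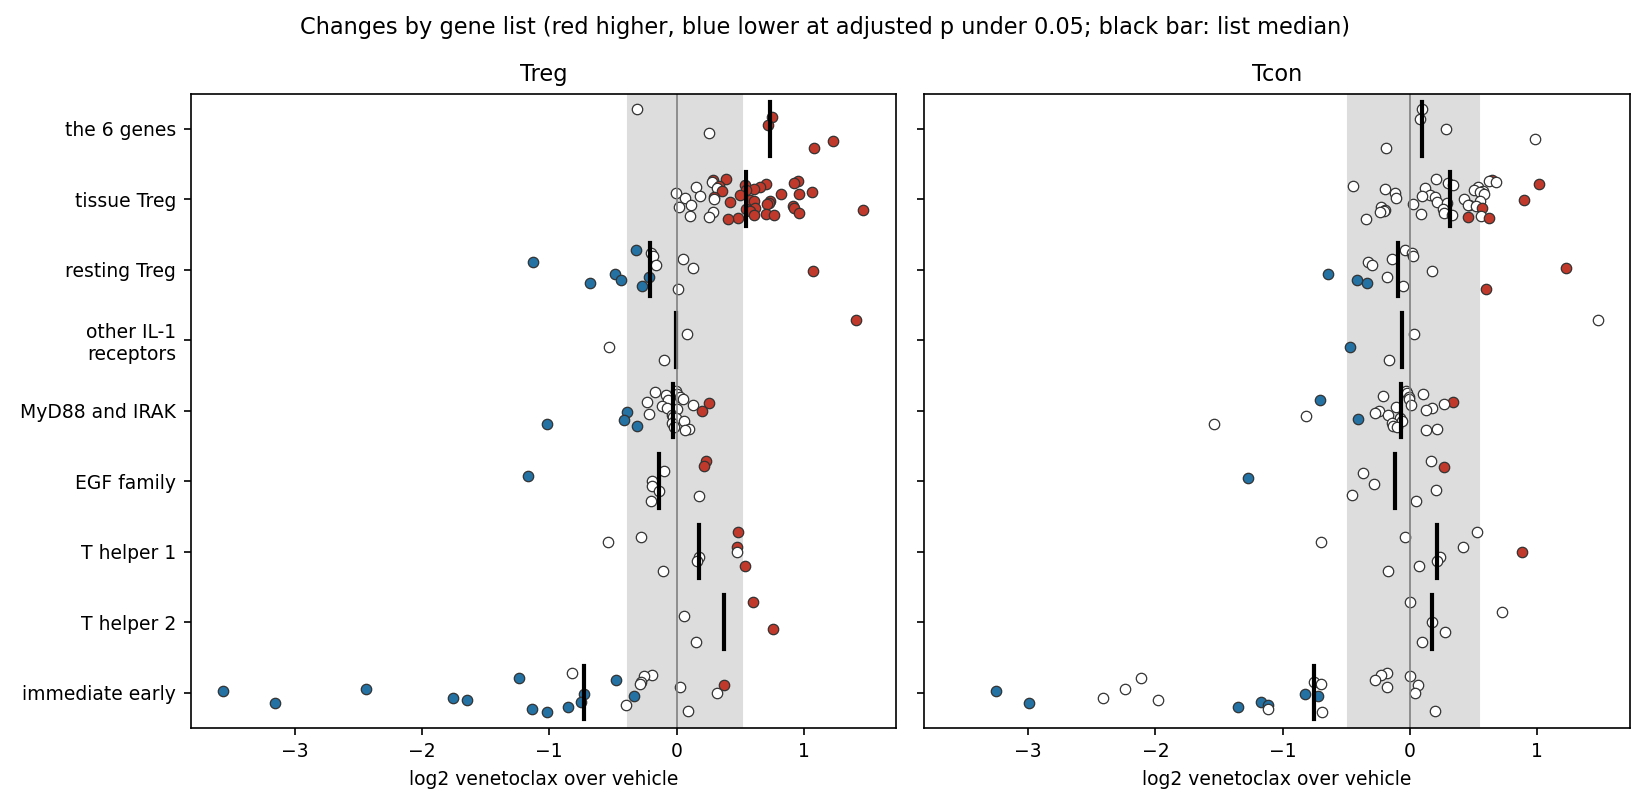
Log2 change of each measured gene (points) by list in Treg (left) and Tcon (right), red where called higher and blue where called lower at a limma adjusted p under 0.05; the black bar is the list median and the grey band holds the middle 90% of all genes. Of the tissue Treg list 34 points of 46 are red in Treg and 6 of 42 in Tcon.

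Marker genes of other cells that carry these receptors were read beside the results. The group 2 innate lymphoid list had 3 of 9 genes measured in Treg, with a summed level of 13 to 15.7 CPM in vehicle and 16.7 to 20.9 in venetoclax libraries; Il17rb was the 1 called, while Il5, Il13 and Ptgdr2 had no row. The NK list had 3 of 12, at 14.1 to 18.3 and 12.4 to 15.5 CPM, with no row for Ncr1, and 0 were called. Of 10 mast cell and basophil markers only Cpa3 had a row, at 1.6 to 2.93 and 1.9 to 3.22 CPM.

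No γδ T cell marker of 7 had a row, and the 3 CD8 T cell markers summed to 16.7 to 19.7 CPM in vehicle and 13.5 to 17.3 in venetoclax Treg. Of 10 neutrophil markers 2 had a row, summing to 3.35 to 12.1 CPM in vehicle and 10.4 to 17.4 in venetoclax Treg, and neither was called. Of 11 monocyte and macrophage markers 4 had a row, summing to 3.92 to 8.95 and 4.08 to 7.28 CPM, and 0 were called. For 4 of 11 B cell markers the sums were 21.6 to 24.7 and 22.6 to 29.4 CPM, with 1 called higher. For 3 of 8 stromal and endothelial markers they were 207 to 251 and 169 to 191 CPM, with 1 called lower. For 4 of 7 erythroid markers they were 1.37 to 23.3 and 0.866 to 57.9 CPM, with 0 called. The 1 dendritic marker of 8 stood at 1.2 to 1.94 and 1.47 to 2.8 CPM. All sums cover only markers with a row. Beside these sums, the mean levels of Il1rl1, Klrg1 and Il18r1 rose by 22.9, 26.5 and 51.4 CPM, and that of Il18rap by 4.04 CPM. The rise of Il18rap is below the innate lymphoid, NK, CD8, B cell and stromal sums of every Treg library. The rises of all of these genes are below the stromal and endothelial sum. The median of the neutrophil sum went from 7.93 to 13.1 CPM. The part of such cells in the changes was not tested. Foxp3 had a log2 change of 0.11 in Treg (limma adjusted p = 0.2).

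The genes whose levels followed each member most closely over the 8 Treg libraries were ranked by the mean absolute difference of centred log2 values. For Il1rl1 it was Stom (0.142), which encodes the membrane protein stomatin, for Il18r1 Osbpl3 (0.0613), an oxysterol-binding protein, for Il18rap Cysltr2 (0.0549), a receptor for cysteinyl leukotrienes, and for Klrg1 Stom again (0.146), followed by Fgl2 (0.154), a secreted Treg effector. For the members without a call they were Hmox1 for Il1r2 (0.129) and Cxcl10 for Areg (0.134). The next in rank were Slc15a3 and Lyn for Il1rl1, Cd80 and Alox8 for Il18r1, and Cybb and Coro2b for Il18rap. They were Pik3ap1 for Klrg1, Sspo and F13a1 for Il1r2, and Dusp5 and Zfp703 for Areg. These distances describe 8 libraries that share the treatment split.

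**Figure D4:**
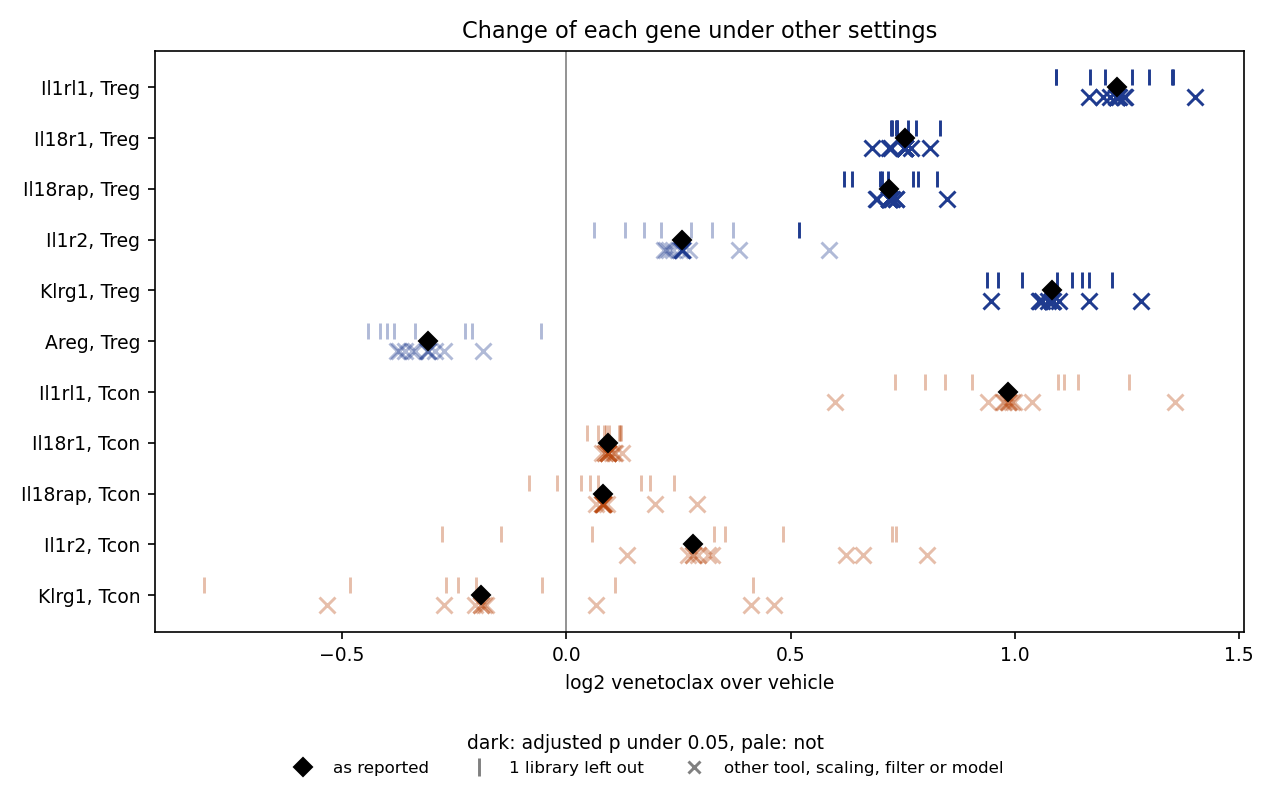
Log2 change of each gene as reported (diamond), with 1 library left out (bars) and with another tool, scaling, filter or model (crosses), dark where the adjusted p was under 0.05; the authors' deposited values are not drawn. Il1rl1, Il18r1, Il18rap and Klrg1 in Treg stay at 0.62 or above and dark throughout, and no Tcon mark is dark.

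The authors' deposited table gave adjusted p-values of 9.66e-06 for Il1rl1, 1.85e-19 for Il18r1, 0.000102 for Il18rap and 0.000114 for Klrg1 in Treg, with log2 fold changes of 1.14, 0.74, 0.66 and 0.96. These were smaller than those of DESeq2 on recovered reads (1.23, 0.76, 0.72 and 1.06). Elsewhere the gap was wide, as for Il1rl1 in Tcon (0.0752 deposited, 0.986 with DESeq2) and Il1r2 in Treg (0.0271 and 0.223). The reason was not tested. In the authors' deposited table Il1r2 (0.722) and Areg (0.431) did not pass in Treg, and the smallest adjusted p of the 5 genes in Tcon was 0.251, for Il1rl1.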

How the data were processed

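Per the labels' protocols, total RNA was read on a NovaSeq in 16 libraries; reads were handled with HISAT2 and SAMtools on mm10, per the submitters' processing notes. The sources used here give no tool versions, read counter or strand setting. Per the file headers, the deposited library columns are a normalized signal; their values are read counts that the authors scaled by 1 factor per library. Dividing by that step gave whole numbers (tolerance 0.01) for 100% of values, so reads were recovered. Deposited beside them are the authors' own log2 fold change with its error, a p-value and an adjusted p-value. The Treg and Tcon tables were normalized separately, so levels were tested only within a table; the subset difference sets the change within one table against that within the other. Repeated lines (43 in Treg, 40 in Tcon) were dropped, and 18 Treg symbols written as dates were restored by Entrez identifier.

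The 6 genes and all lists were chosen with earlier results of these data known. Normalized counts, after adding 1 and taking log2, were compared with limma 3.58.1 (mean-dependent prior) between 4 venetoclax and 4 vehicle libraries, with Benjamini-Hochberg adjustment over all genes of a table and a threshold of 0.05. The subset difference was the interaction over 10774 genes in both tables. The fits were tested on simulated data. Alternatives were edgeR 4.0.16 and DESeq2 1.42.0 on recovered reads, the authors' adjusted p, other scalings, pseudocounts, filter and prior, the replicate number as a block, Ddx3y as a covariate, and libraries left out. Deviations of same-numbered vehicle and venetoclax libraries had correlations of 0.119, 0.555, 0.614 and 0.272 across genes in Tcon. In Treg they were -0.0395, 0.414, 0.256 and 0.385. Pairs of different numbers reached 0.292 in Tcon (vehicle 2 with venetoclax 1) and 0.363 in Treg (vehicle 1 with venetoclax 4). The pair of number 1 thus did not stand out, and at numbers 1 and 3 vehicle and venetoclax differed in Ddx3y reads. No pairing by number is stated, so the replicate block is an assumption. Since both subsets carry the same codes, block values are given for both. P-values measure the spread between these libraries, whose separate origin beyond the word biological is not stated. Further genes named were mainly, per list, from the 4 called genes with the smallest p, and the measured neighbours within 500 kb. Also named are the 3 genes nearest in pattern to each member (mean normalized count of 50 or more). Not every gene of the first kind is named, and some named genes fall outside this rule, such as Ccr8 and Il1rap in Treg. Per-length levels used the exon union of GENCODE vM21.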

Additional observations from a re-analysis of the deposited data

Results flagged for a closer look

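Of the 22 groups of 4 libraries tested for a library far from the others, 2 held one, where chance gives about 1 in 20. Il18r1 in venetoclax Treg had its lowest library at 2453 normalized counts (replicate 2), apart from the other 3 at 3011 to 3079 and still above every vehicle library. Il1r2 in vehicle Treg had its highest library at 693.6 (replicate 4), apart from 307.9 to 365; without it the log2 change of Il1r2 was 0.52 (limma adjusted p = 0.0474). The effect on Il18r1 differed between the subsets by 0.66 on the log2 scale (limma interaction, adjusted p = 0.00396), the Treg groups being apart in every library and the Tcon groups overlapping.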

How the results depend on the processing

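The calls of Il1rl1, Il18r1, Il18rap and Klrg1 in Treg held under all 21 alternatives each, as did that of the Il18r1 difference under all 14. The 14 for the difference include no fit with Ddx3y as a covariate. The members called in Treg numbered 4 to 5 with 1 library left out, the fifth being Il1r2 without vehicle replicate 4. Genes called in Treg numbered 2164, 614 without venetoclax replicates 1 and 3, 1028 without both replicates 3, and 1327 (without venetoclax replicate 1; 1419 without vehicle replicate 3) to 2198 with 1 library left out. In Tcon they numbered 772, 1364 with DESeq2, 1257 by the authors' deposited adjusted p, 326 with Ddx3y as a covariate, 116 without venetoclax replicates 1 and 3, 1443 without both replicates 3, and 306 (without venetoclax replicate 1) to 1244 (without vehicle replicate 3) with 1 library left out. For the subset difference they numbered 140, 295 with DESeq2 and 43 to 149 with 1 code left out. The causes were not tested; fits with fewer libraries also hold fewer samples.

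With the replicate number as a block, 1880 genes passed in Tcon and 2467 in Treg, where Il1r2 (adjusted p = 0.0305) and Rora (0.0416) also passed. With the code shared by a Treg and a Tcon library as the replicate block, 389 genes passed for the difference, with 2 members (Il18r1 and Il18rap). These blocks changed no other call of the 6 genes.

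Signs turned for genes without a call. Klrg1 in Tcon was at -0.19, and at 0.46 with edgeR, 0.0141 in the authors' deposited table, 0.0656 with a pseudocount of 8, 0.41 with the covariate and -0.81 to 0.42 with 1 library left out. The deposited changes were smaller in size than those of DESeq2 (above), so the size of 0.0141 does not compare with the others. Il1r2 in Tcon ran from -0.276 to 0.735 and Il18rap in Tcon from -0.0822 to 0.241 with 1 library left out. The Il1r2 difference was 0.12 with a pseudocount of 8 and ran from -0.41 to 0.49. Gata3 in Treg was 0.0143 with library total scaling, 0.0309 with the covariate and -0.0412 to 0.0941 with 1 library left out, and Map4k4 in Tcon was 0.0372 without venetoclax replicates 1 and 3 and -0.0688 to 0.0446 with 1 left out; M6pr in Tcon was -0.00197 without venetoclax replicates 1 and 3. Reads limit Il1rl1, Il1r2 and Klrg1 in Tcon.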
